A study of Bos taurus with 16 samples.

Results

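The FOX, SOX, TBX, GATA, KLF, RUNX and TEAD genes encode families of DNA-binding transcription factors, and their methylation was followed in endometrial cells of postpartum dairy cows. Members were chosen by name: every autosomal site whose gene symbol was FOX with a letter and a number, or SOX, TBX, GATA, KLF, RUNX or TEAD with a number, except SOX9. The rule found 81 of the 10781 genes in the deposited table and 1505 of its 199395 cytosine positions. There were 34 FOX genes with 614 sites, 12 SOX genes with 119, 10 TBX genes with 282, 5 GATA genes with 129, 13 KLF genes with 186, 4 RUNX genes with 125 and 3 TEAD genes with 50. One of the 4 RUNX symbols, RUNX1T1, names a corepressor that has no RUNX DNA-binding domain and entered by its name. The rule reads only names and chromosomes, but it was set with earlier results of these data known. SOX9, left out by name, is among the genes that the paper reports as more methylated with methionine.

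Reduced representation bisulfite sequencing (RRBS), which reads methylation in MspI fragments, had been applied to cytobrush samples of the endometrium. CON cows received a control diet and MET cows received rumen-protected methionine (RPM) from day 12 after calving. All were inseminated at heat on days 50 to 64 postpartum, were sampled 4 to 8 h later and were then grouped as pregnant (P) or not pregnant (noP). Each of CON_P, CON_noP, MET_P and MET_noP was represented by 4 libraries, 16 in all. Transcription factors of these families bind short DNA motifs and set which genes a cell uses. Promoters of such regulators often lie in CpG islands, which stay largely unmethylated in most tissues, whereas the bodies of transcribed genes are commonly methylated. FOXA2 and SOX17 are known for uterine gland development, FOXO1 for decidualization, GATA2 for its work beside the progesterone receptor, and TEAD proteins for carrying the YAP and TAZ signal of the Hippo pathway. KLF proteins bind GC-rich elements, TBX2 and TBX3 are repressors, and RUNX proteins act in blood, bone and T cells.

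Every value is the percent of methylated calls at a position in a library, and a gene's methylation level is the mean over its sites. Read counts were not used here, so site depth is unknown and a single percentage comes without a counting error. The paper reports unequal mean numbers of raw reads and of CpG calls between the groups, highest in MET_P and lowest in CON_P. The part of this inequality in the differences between groups was not tested. Only positions with a value above 0 in all libraries had been kept, which leaves out sites that were unmethylated in any library. The libraries of a group are described as biological replicates. The paper reports DNA from more cytobrush samples than libraries, with more samples in the noP groups than in the P groups. How these samples were shared among the libraries is not given in the sources used here, nor is the number of cows behind each library. The columns carry a group without a cow. The p-values therefore measure the spread between these libraries. Libraries are named below by their group and the library number of their column. The table gives the gene at a position but no exon, intron or start site, and positions refer to ARS-UCD1.2. A cytobrush gathers luminal epithelium together with leukocytes and stroma, and percent methylation gives no expression of marker genes with which to check that mixture. A change in the mixture of cells and a change within cells cannot be told apart in these bulk libraries.

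Sites of these transcription factor genes carried less methylation than other genic sites. Their mean level over the libraries was 49.5% (median 39.7%), against 67.5% (median 85.1%) over the 121988 autosomal sites in genes. In each of the 16 libraries the mean over the members was lower, with a difference between -19.03 and -16.9 percentage points. A level under 20% was found at 460 member sites (30.6%) and at 15.8% of all autosomal sites in genes, and a level over 80% at 487 (32.4%) and at 54.5%. The members also held more sites, 18.6 per gene against 11.7. At a typical member site the libraries of a group spread somewhat more, with a median SD of 6.08 percentage points against 5.14. These are descriptions of what RRBS and the filter kept, and no test was made of them.

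**Figure D1:**
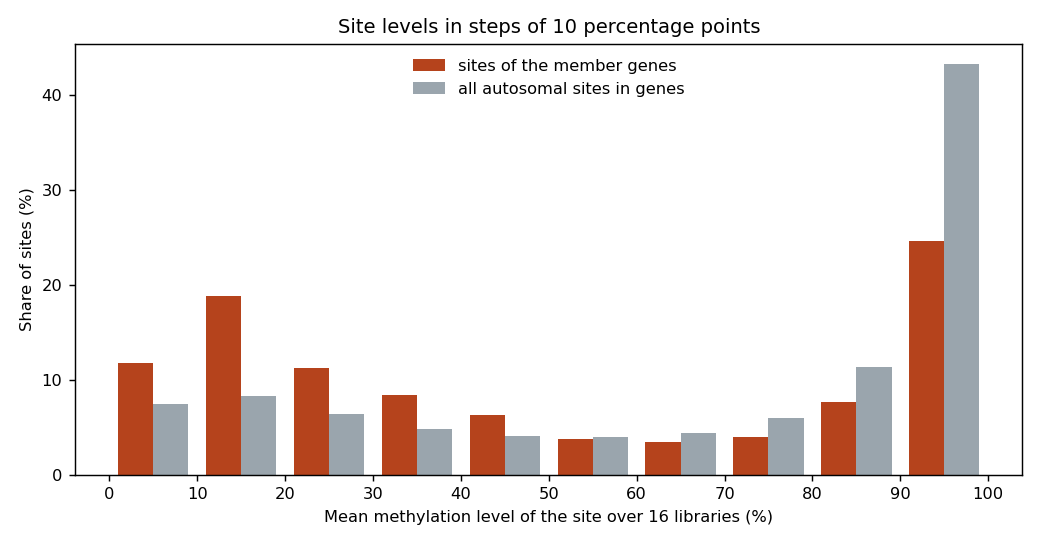
Share of sites (vertical axis, percent) in each step of 10 percentage points of mean methylation level over the 16 libraries (horizontal axis), for sites of the 81 member genes and for all autosomal sites in genes. The share at 90% to 100% was 24.7% for the members and 43.2% for all sites, and the share at 10% to 20% was 18.8% and 8.34%.

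Within the list, the families stood at different levels. Over their sites, GATA genes had the lowest mean level (21.9%), followed by SOX (37.6%), TBX (38.7%), KLF (54.7%), RUNX (55.0%), FOX (58.3%) and TEAD (68.6%). The order differed when each gene counted once. By the median of the gene means FOX was lowest (19.98%), followed by SOX (21.2%), GATA (23.1%), TBX (38.6%), RUNX (60.96%), KLF (62.3%) and TEAD (70.9%). By gene, 31 members had a mean under 20%, 40 lay between 20% and 80%, and 10 were over 80%. Of the 34 FOX genes 17 were under 20% and 6 were over 80%, so the family was split between the extremes. The highest of the 5 GATA genes was GATA4 at 26.8%. All 3 TEAD and all 4 RUNX genes held both sites under 20% and sites over 80%, as did 28 of the 81 members.

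**Figure D2:**
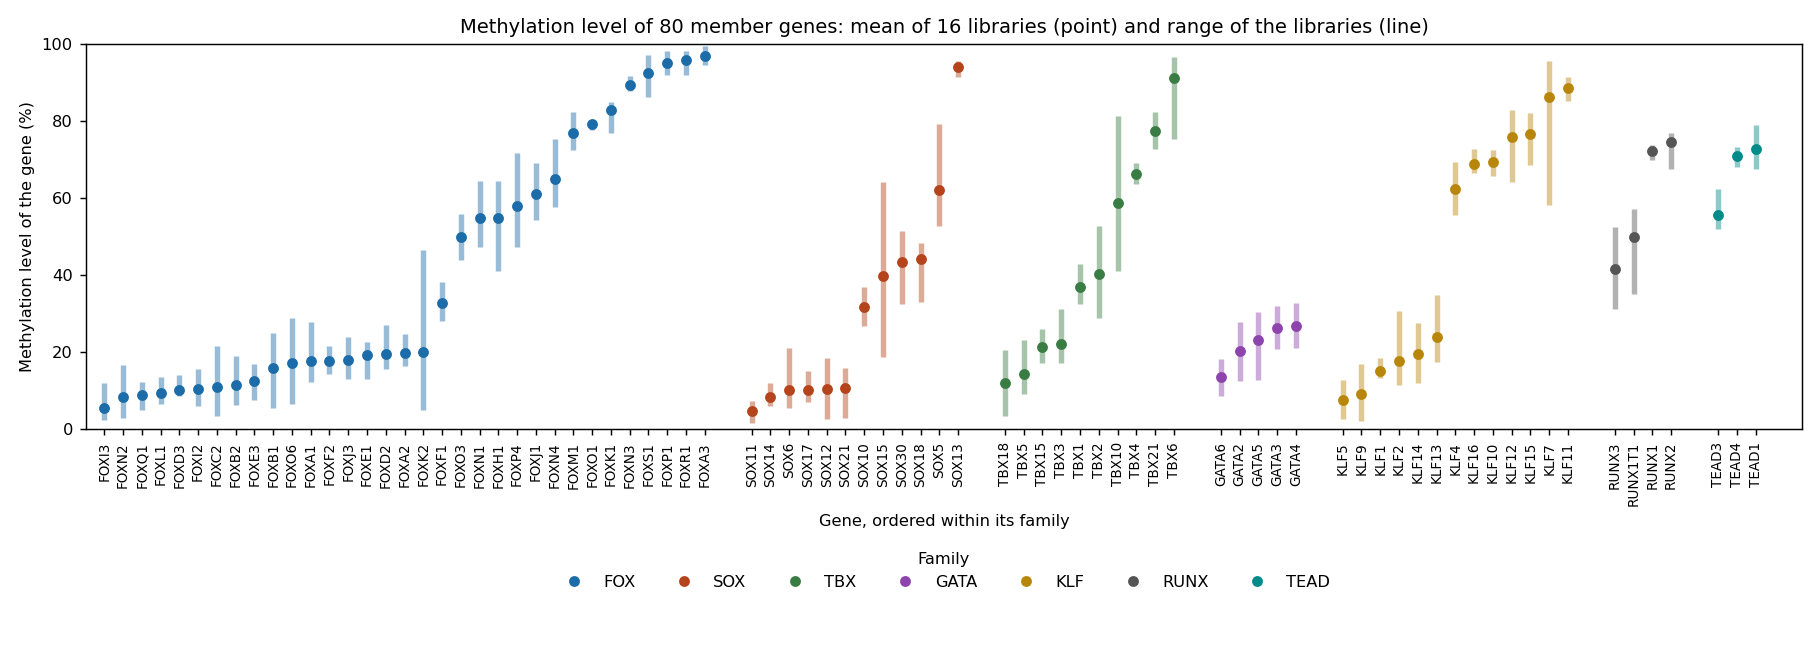
Methylation level (vertical axis, percent) of 80 of the 81 member genes, ordered within its family by level (horizontal axis). Points are means of 16 libraries and lines run from the lowest to the highest library. GATA genes stay between 13.5% and 26.8%, while FOX genes run from 5.47% in FOXI3 to 96.8% in FOXA3, and the longest lines belong to SOX15, FOXK2, TBX10 and KLF7.

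The lowest gene means among members with at least 3 sites belonged to SOX14 (8.34%, 10 sites), FOXQ1 (8.77%, 4 sites), FOXL1 (9.34%, 7 sites), FOXD3 (10.1%, 17 sites) and SOX17 (10.2%, 4 sites). SOX14 acts in neurons, FOXD3 in neural crest, and FOXL1 marks mesenchyme beneath the gut epithelium. SOX17, a factor of endoderm and of uterine glands, had levels of 8.29% to 12.8% in CON_P, 8.70% to 14.1% in CON_noP, 7.16% to 11.3% in MET_P and 8.93% to 15.2% in MET_noP, so its 4 groups overlapped. At the other end stood FOXA3 (96.8%, 9 sites), FOXR1 (95.8%, 5 sites), FOXP1 (95.1%, 12 sites), SOX13 (93.9%, 8 sites) and FOXS1 (92.4%, 9 sites). The 10 members with 1 site were not tested as genes, and all 10 had a level between 4.74% in SOX11 and 15.9% in FOXB1. They included KLF5 (7.63%) and KLF9 (9.26%), a progesterone receptor partner in uterine epithelium.

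The FOXA genes, whose proteins open closed chromatin, were far apart in level. FOXA1 had a mean of 17.6% over 28 sites on chromosome 21 and FOXA2 of 19.9% over 21 sites on chromosome 13, whereas FOXA3 was at 96.8% over 9 sites on chromosome 18. FOXA2, required for uterine glands, was at 31.1% over the 10 sites from 41543234 to 41543585 and at 7.80% over the 7 sites from 41543960 to 41544194. Its gene level was 17.1% to 22.1% in CON_P, 17.3% to 22.6% in CON_noP, 17.3% to 24.6% in MET_P and 16.4% to 22.4% in MET_noP. No group of FOXA2 stood apart. FOXA1 was at 15.4%, 27.8%, 13.8% and 12.9% in the MET_P libraries, and a single library, 19, was high there.

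Among the FOXO genes, which are switched off by insulin and AKT signalling, FOXO1 was one of the steadiest members. It had a mean of 79.2% with a range of 77.8% to 79.9% over the 16 libraries, with 16 sites at 96.9% at one end of the measured stretch and 3 of its other 4 sites at 8.78% at the other end. FOXO3 stood at 49.9% over 8 sites and FOXO6 at 17.3% over 5. FOXM1, a driver of mitosis, had 1 site under 20% and 4 over 80%. FOXJ1, the master factor of motile cilia, had 33 sites at a mean of 61.1%, and its 3 dense stretches lay at 55.9%, 81.2% and 65.1%. FOXK1 (82.9%, 71 sites) and FOXN3 (89.4%, 158 sites, the most of any member) were methylated along most of their measured length, with 56 and 131 sites over 80%.

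In the SOX family, SOX10, a neural crest factor, had 8 sites from 109761626 to 109761672 on chromosome 5 at 94.5% and 44 sites from 109767663 to 109767946 at 20.9%. SOX18, which acts in blood and lymph vessels, stepped from 16.4% at 3 sites to 64.8% at 6 nearby sites. SOX5 had dense stretches at 89.9%, 28.3% and 94.4%. The TBX genes had the largest share of sites at intermediate levels: 158 of 282 (56.0%) were between 20% and 80%, against 37.1% of all member sites. In TBX2 this held for 74 of 80 sites. TBX4, which lies 50.0 kb from TBX2 between the nearest measured sites on chromosome 19, was at 82.6% over 21 sites and at 11.6% over the last 6. TBX21, the T-bet factor of T helper and natural killer cells, was at 93.2% over 5 sites and 74.6% over 4.

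GATA3, a factor of T cells and of trophoblast, had 43 sites at a mean of 26.3%, with its dense stretches between 11.4% and 57.7%. GATA6, a factor of endoderm, had 28 of 34 sites under 20%. GATA2 stood at 20.3% over 17 sites, with libraries from 12.5% to 27.8%. KLF genes joined both extremes: KLF16 ran from 93.9% over 19 sites through 24.6% to 8.23% over 4 sites, KLF11 from 95.5% over 12 sites to a single site at 6.78%, and KLF1, the erythroid factor, had 16 of 18 sites under 20%. RUNX1 had 13 sites at 98.0%, 5 at 8.16% and 8 at 94.5%. In RUNX3, whose product acts in cytotoxic T cells, 52 of 59 sites were intermediate. TEAD4, known for trophectoderm, had 5 dense stretches at 86.7% to 97.2% and a sixth, 106834665 to 106834835 on chromosome 5, at 9.75%. TEAD1 (72.9%) and TEAD3 (55.6%) held similar steps.

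Some members lay next to each other, and 13 formed 7 neighbouring pairs with at most 150 kb between their measured sites. FOXF1, FOXC2 and FOXL1 followed each other on chromosome 18 at 32.9%, 10.97% and 9.34%. FOXD2 and FOXE3 on chromosome 3 stood at 19.6% and 12.5%, FOXF2 and FOXQ1 on chromosome 23 at 17.7% and 8.77%, TBX3 and TBX5 on chromosome 17 at 22.2% and 14.3%, and TEAD4 and FOXM1 on chromosome 5 at 70.9% and 77.0%. TBX4 (66.2%) and TBX2 (40.2%) were the pair with the largest step. Of 31 genes of these families with a recognised role in endometrium or trophoblast, 26 had a site, and FOXL2, SOX4, SOX2, KLF6 and TBX20 had no value to analyse here.

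**Figure D3:**
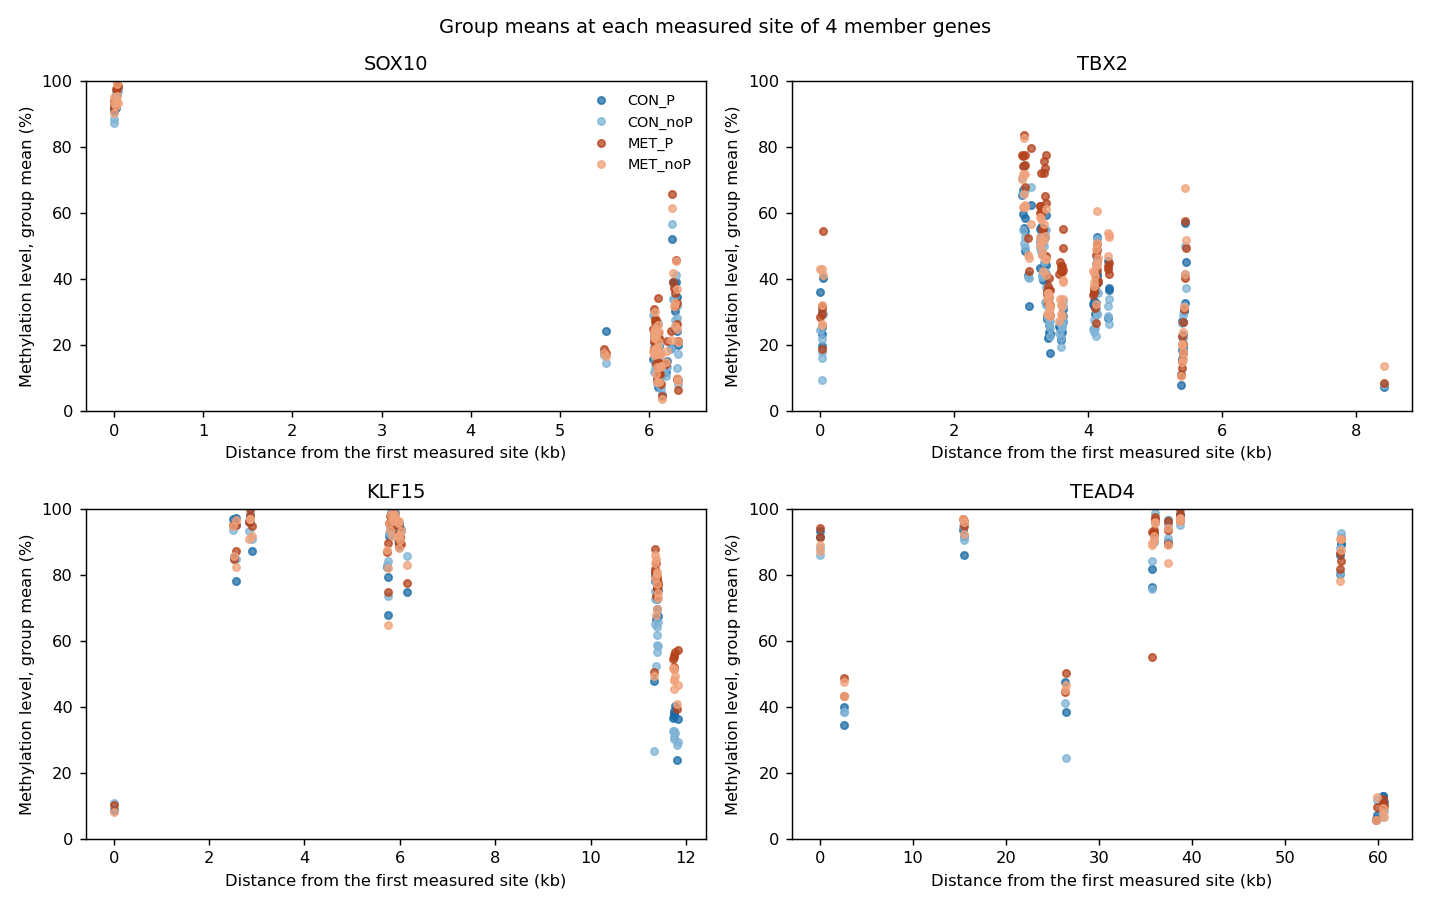
Group mean methylation level (vertical axis, percent) at each measured site against the distance from the first measured site of the gene (horizontal axis, kb) in SOX10, TBX2, KLF15 and TEAD4, with one colour for each of CON_P, CON_noP, MET_P and MET_noP (4 libraries each). SOX10 steps from 94.5% to 20.9%, TEAD4 ends at 9.75%, and in the last stretch of KLF15 both MET means, 52.8% and 47.7%, lie above both CON means, 36.1% and 31.1%.

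Over all 1505 sites, the member mean was 50.3% ± 1.03 (SD, n = 4) in MET_P, 50.1% ± 1.05 in MET_noP, 49.2% ± 1.46 in CON_P and 48.5% ± 1.06 in CON_noP. The 4 groups overlapped. KLF sites stood highest in MET_P at 56.4% ± 0.686 (SD, n = 4) and lowest in CON_noP at 53.3% ± 1.49. The libraries of MET_P ran from 56.0% to 57.4% and those of CON_P from 52.4% to 54.9%, without overlap, whereas every other family overlapped between MET_P and CON_P. KLF15, described below, holds many of the KLF sites, and its part in this difference was not tested. All autosomal sites in genes were at 68.0% ± 0.548 in MET_P and 67.5% ± 1.33 in CON_P.

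Tests were made on 71 genes with at least 2 sites, on 168 dense regions (3 or more sites with gaps of at most 200 bases) and on single sites. For the tests, levels were put on a log2 scale as M values: methylated over unmethylated percent, each raised by 1 percentage point. Models were fitted with limma over the whole table, which held 8719 such genes and 17162 such regions, and p-values were adjusted over all of them. After that adjustment 0 member genes, 0 member regions and 0 member sites passed 0.05 in any of the 7 comparisons, and 0 of the 8719 genes did. Among all sites of the series 0.000502% passed for P against noP over both diets and 0.00100% for the interaction, and 0 elsewhere. The lowest adjusted p of a member gene was 0.505, in the comparison of diets over both outcomes. What follows gives the members' values, with counts at an unadjusted limma p under 0.05, and none of them is called as changed.

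Between CON_P and CON_noP, the comparison of outcomes on the control diet, gene differences ran from -4.54 percentage points in FOXP4 to 9.59 in FOXK2. Without library 14 of CON_P, FOXH1 was the highest at 5.84 and FOXP4 the lowest at -6.92. FOXE3, a lens factor, was the 1 gene of 71 (1.41%) with an unadjusted p under 0.05, where 3.50% of all genes had one. Its libraries were at 9.14%, 12.3%, 13.8% and 7.49% in CON_P and at 13.9955%, 12.8%, 16.2% and 14.8% in CON_noP, and the ranges overlapped. The difference of the means was -3.77 percentage points (M difference -0.49 ± 0.21 SE, limma, adjusted p = 1). No member gene had CON_P and CON_noP libraries that did not overlap (0 of 71, where 1.95% of all genes had them). The median difference over the 71 genes was 0.50 percentage points, beside 0.44 over all genes.

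Single positions differed more. In TBX21 the site at 38716822 on chromosome 19 was at 100% in all 4 CON_P libraries and at 92.0%, 73.3%, 81.0% and 92.9% in CON_noP. Its adjusted p was 0.195 by limma. The site was at 100%, 96.4%, 85.3% and 94.9% in MET_P and at 97.4%, 91.3%, 96.2% and 92.7% in MET_noP. In TBX3 the site at 60097799 on chromosome 17 was at 9.09%, 20.9%, 11.4% and 21.6% in CON_P and at 31.6%, 21.7%, 37.1% and 41.5% in CON_noP, so the CON_P libraries lay just under the others (limma, adjusted p = 1). FOXN3 was lower in CON_P at 100918309 on chromosome 10, at 83.3% ± 9.63 (SD, n = 4) against 95.9% ± 3.40, a difference of -12.6 percentage points and of -8.21 without library 30 of CON_P. The FOXN3 region from 101121728 to 101121818 had 97.2% to 98.9% in CON_P and 92.8% to 97.1% in CON_noP, and its difference of 2.09 percentage points was 1.12 without library 16 of CON_noP. In all 48 member sites (3.19%) had an unadjusted p under 0.05, where 3.93% of all sites did, and 5 member regions (2.98%), where 3.49% of all regions did.

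Between MET_P and MET_noP, the comparison of outcomes on RPM, KLF7 had the largest difference of the 71 genes. FOXK2 had the lowest, -11.9 percentage points, and -5.88 without library 25 of MET_noP. KLF7, a factor of neurons and fat cells, was measured at 4 sites from 95377131 to 95377180 on chromosome 2. Its level was 92.6%, 92.6%, 91.1% and 95.5% in MET_P and 83.6%, 84.3%, 58.3% and 86.8% in MET_noP. Every MET_P library was above every MET_noP library, with a difference of 14.7 percentage points (M difference 1.65 ± 0.46 SE, limma, adjusted p = 0.810). A single library, 25, was far below the others of MET_noP, and without it the difference was 8.07 percentage points. KLF7 was the 1 member of 71 with an unadjusted p under 0.05 (1.41%, where 5.59% of all genes had one) and the 1 without overlap (3.44% of all genes). In CON cows the libraries of KLF7 were at 82.6%, 79.7%, 89.6% and 93.2% in CON_P and at 88.6%, 91.4%, 89.6% and 78.3% in CON_noP, and overlapped. The interaction of diet and outcome at KLF7 was 15.4 percentage points (limma, adjusted p = 0.893) and 8.76 without library 25. The largest interaction of the 71 genes was in FOXK2, at -21.5 percentage points, and -15.5 without library 25. KLF7 was the 1 member gene of 71 with an unadjusted interaction p under 0.05, where 5.40% of all genes had one. Such a p was found at 64 member sites (4.25%), where 5.25% of all sites had one, and in 4 member regions (2.38%), where 5.37% of all regions did.

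Of the 168 member regions 7 (4.17%) had an unadjusted p under 0.05 in this comparison, where 5.25% of all regions did. TBX4 at 11633399 to 11633428 on chromosome 19 was at 18.4%, 25.4%, 22.1% and 25.5% in MET_P and at 15.8%, 11.3%, 15.4% and 17.5% in MET_noP, a difference of 7.85 percentage points (limma, adjusted p = 0.913). FOXN3 at 100904504 to 100904599 differed by -1.05 percentage points between 97.8% ± 0.535 and 98.9% ± 0.375 (SD, n = 4 each). TEAD4 at 106809893 to 106810171 on chromosome 5 was at 88.1% ± 1.71 in MET_P and 92.1% ± 2.32 in MET_noP (SD, n = 4 each), without overlap. Taken as a median of its 6 sites, that difference of -4.03 turned to 1.62.

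One site carried the TEAD4 difference. At 106809912 the MET_P libraries were at 69.0%, 39.3%, 44.4% and 67.0% and the MET_noP libraries at 83.0%, 91.4%, 100% and 83.9%, a difference of -34.6 percentage points (limma, adjusted p = 0.890). CON_P had 57.1%, 86.8%, 85.0% and 97.7% there and CON_noP 96.8%, 76.5%, 42.3% and 87.3%, so the CON libraries covered nearly the whole span. In FOXK1 at 39245643 on chromosome 25, MET_P stood at 27.3%, 20%, 16.7% and 26.3% and MET_noP at 45.5%, 31.6%, 61.9% and 47.1% (limma, adjusted p = 0.890). FOXK1 and its relative FOXK2 repress target genes and respond to nutrient supply. KLF7 at 95377163 reached 97.1% to 100% in MET_P against 57.1% to 92.3% in MET_noP, and the difference of 18.6 percentage points was 10.99 without library 25. TBX2 at 11687216 on chromosome 19 was at 75.9% ± 7.32 against 56.8% ± 18.01 (SD, n = 4 each), and its difference of 19.1 percentage points was 10.2 without library 25. Over all member sites 58 (3.85%) had an unadjusted p under 0.05, where 5.12% of all sites did.

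Cell type markers were read in the same libraries. Over 19 measured genes of a 35-gene leukocyte list the mean methylation level was 59.0% to 60.3% in the MET_P libraries and 55.7% to 58.2% in the MET_noP libraries, without overlap, while 0 of the 19 passed the adjusted threshold and 1, CD6, had an unadjusted p under 0.05 (5.26%, where 5.59% of all genes had one). In CON_P it was 55.4% to 63.4% and in CON_noP 57.7% to 59.3%. Epithelial markers (7 of 13 measured) were at 24.3% to 29.9% in MET_P and 21.8% to 36.0% in MET_noP, and stromal markers (6 of 9) at 36.1% to 37.9% and 35.3% to 39.9%. The part of the cell mixture in the KLF7, TBX4, FOXK1 and TEAD4 differences was not tested.

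**Figure D4:**
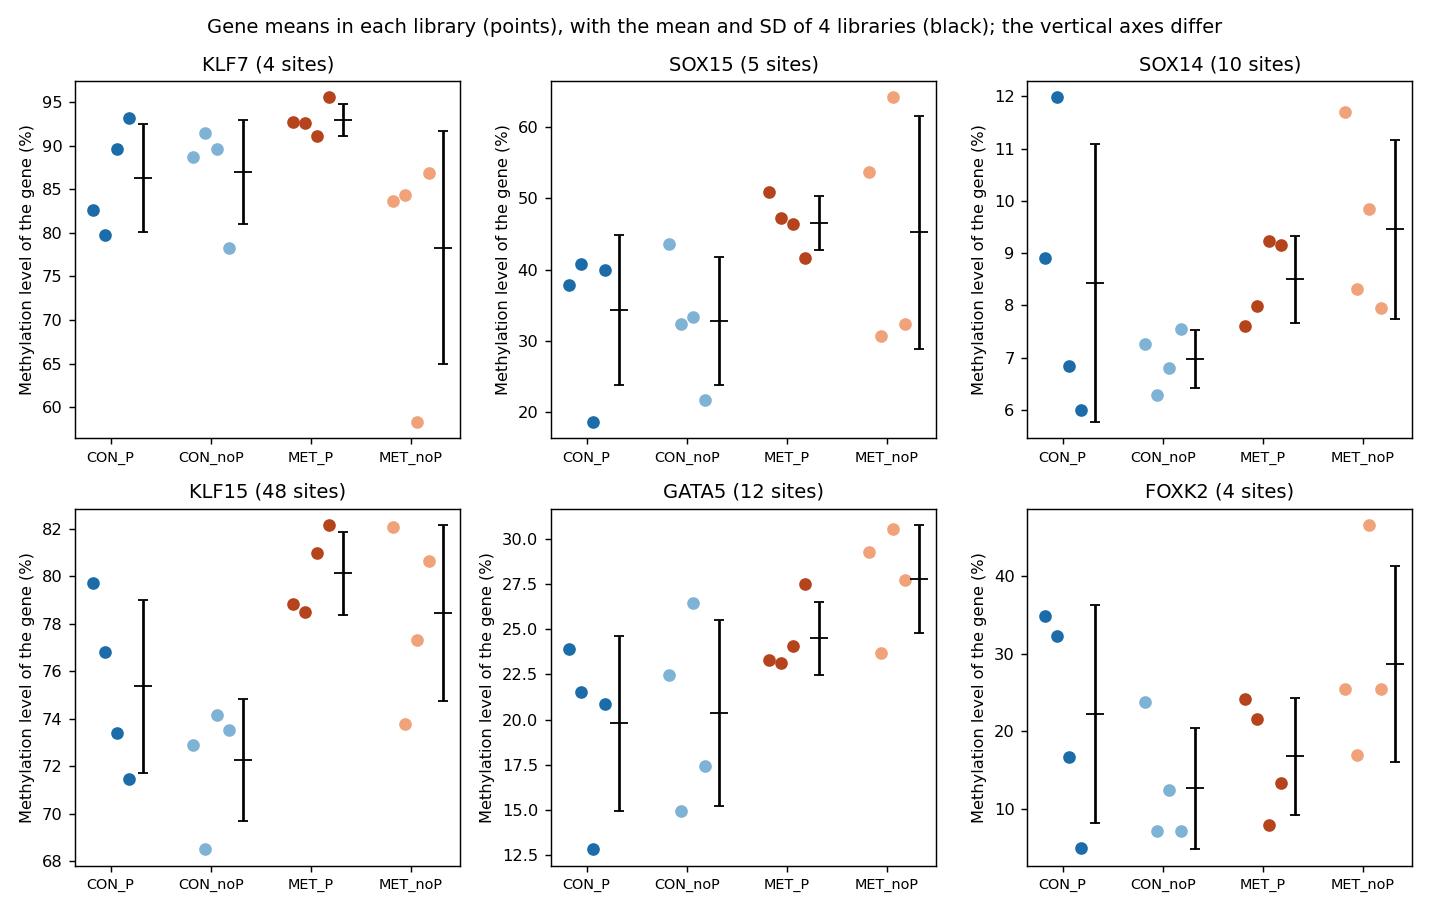
Gene methylation level (vertical axis, percent, scaled separately in each panel) in every library of CON_P, CON_noP, MET_P and MET_noP for KLF7, SOX15, SOX14, KLF15, GATA5 and FOXK2. Points are libraries and the black marks give the mean and SD of 4 libraries. One MET_noP library of KLF7 lies at 58.3% and one of FOXK2 at 46.6%, and both are library 25. In SOX14 the MET_noP libraries lie between 7.95% and 11.7%, all above CON_noP.

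Between MET_P and CON_P, the comparison of diets in cows that became pregnant, 3 member genes of 71 had libraries that did not overlap (4.23%, where 3.81% of all genes had them). SOX15, a SOX factor studied in muscle progenitors and trophoblast, had 5 sites from 27320443 to 27320482 on chromosome 19. Its level was 50.9%, 47.3%, 46.4% and 41.7% in MET_P and 37.9%, 40.7%, 18.7% and 40.0% in CON_P, a difference of 12.2 percentage points (M difference 0.77 ± 0.34 SE, limma, adjusted p = 0.683). The lowest MET_P library (41.7%) lay just above the highest CON_P library (40.7%), and without library 26 of CON_P the difference was 7.01. FOXD3 was at 10.8%, 12.6%, 9.76% and 11.8% in MET_P and at 8.85%, 9.41%, 9.11% and 9.32% in CON_P, a difference of 2.06 percentage points (limma, adjusted p = 0.680), which was 1.16 once M values were shifted to a common library median. TBX4 was the gene without overlap that stood lower in MET_P, at 64.9% ± 1.25 against 67.0% ± 0.587 (SD, n = 4 each, limma, adjusted p = 0.786).

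By unadjusted p under 0.05, 4 member genes were named (5.63%, where 7.26% of all genes were). All 4 had the higher level in MET_P, as did 477 of the 633 such genes in the whole table (5.47% of all genes). Beside FOXD3 and KLF7 the 4 members were FOXQ1, at 9.61% ± 1.87 against 6.70% ± 1.39, and SOX30, a factor of male germ cells, at 46.1% ± 3.99 against 40.0% ± 2.39 (SD, n = 4 each). With M values shifted so that all libraries had 1 common median, 1 of 4 such genes was higher in MET_P, so the common direction depended on the scale. The median difference over all genes then went from 0.53 to -0.21 percentage points, and that over the members from 0.39 to -0.36.

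TBX10, measured at 2 sites, had the largest difference in the other direction, -11.3 percentage points, with 43.6% to 60.5% in MET_P and 50.0% to 81.2% in CON_P, which overlapped. Without library 26 of CON_P the TBX10 difference was -5.51, and FOXK2 was then the lowest member gene at -7.29. Among regions, GATA3 at 15925439 to 15925587 on chromosome 13 was at 11.1%, 12.9%, 16.6% and 11.9% in MET_P and at 6.93%, 10.02%, 10.04% and 10.3% in CON_P, a difference of 3.81 percentage points. FOXP1 at 30680005 to 30680064 on chromosome 22 was at 98.2% ± 0.230 in MET_P and 99.1% ± 0.441 in CON_P, close to full methylation in both. In FOXN3 the site at 100977906 was at 100%, 100%, 95.8% and 94.3% in MET_P and at 69.6%, 87.5%, 44.4% and 89.3% in CON_P (limma, adjusted p = 0.825), and its difference of 24.8 percentage points was 15.4 without library 26 of CON_P. TBX2 at 11687216 was at 70%, 71.1%, 86.0% and 76.4% against 59.3%, 47.2%, 45.8% and 68.8% (limma, adjusted p = 0.827). KLF14 at 94523993 on chromosome 4 was at 45.9% ± 5.06 against 28.6% ± 12.6, and SOX15 at 27320482 at 49.6% ± 6.06 against 33.6% ± 4.96 (SD, n = 4 each). Of the member regions 5 (2.98%) had an unadjusted p under 0.05, where 6.62% of all regions did, and of the sites 60 (3.99%), where 5.83% of all sites did.

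Between MET_noP and CON_noP, the comparison of diets in cows that did not become pregnant, 2 of 71 member genes had no overlap (2.82%, where 3.75% of all genes had none), SOX14 among them. SOX14 was at 11.7%, 8.32%, 9.84% and 7.95% in MET_noP and at 7.27%, 6.29%, 6.80% and 7.55% in CON_noP, a difference of 2.48 percentage points (limma, adjusted p = 0.748).

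Unadjusted p-values under 0.05 were found for 8 member genes (11.3%, where 6.39% of all genes had one). The level in MET_noP was the higher one for 7 of them, FOXH1, FOXK2, SOX14, KLF15, GATA5 and TBX6 included (4.75% of all genes were such), and the lower one for FOXJ3. After that centring there were 6 such genes, 4 of them higher in MET_noP. FOXH1, the partner of SMAD proteins in activin and Nodal signalling, was at 60.4%, 64.5%, 60.9% and 60.5% in MET_noP and at 48.9%, 42.1%, 62.5% and 41.0% in CON_noP, and library 24 of CON_noP lay inside the MET_noP range. FOXK2 had the largest difference of the 71 genes, 15.99 percentage points over 4 sites, from 25.5%, 17.02%, 46.6% and 25.5% in MET_noP and 23.8%, 7.23%, 12.4% and 7.14% in CON_noP (limma, adjusted p = 0.748). Without library 25 of MET_noP the FOXK2 difference was 10.01, and FOXH1 then had the largest at 13.2. The FOXK2 groups overlapped, and its CON_P libraries alone spanned 4.98% to 34.9%.

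Among regions of MET_noP and CON_noP, 13 of 168 (7.74%) had an unadjusted p under 0.05, where 5.82% of all regions did. Of the 13, 12 were higher in MET_noP, as were 736 of the 999 such regions in the whole table (4.29% of all regions). After centring it was 9 of 14 member regions. In TBX2, a repressor that holds back cell cycle inhibitors, the 6 sites from 11683878 to 11683926 were at 40.2%, 28.2%, 30.98% and 41.8% in MET_noP and at 22.9%, 11.2%, 24.3% and 21.3% in CON_noP, a difference of 15.4 percentage points (M difference 1.14 ± 0.36 SE, limma, adjusted p = 0.790). The region with 17 TBX2 sites from 11687952 was at 46.0% ± 10.4 against 31.4% ± 7.29, with overlap, and the 11 sites from 11689268 were at 28.7% ± 3.94 against 28.2% ± 1.89 (SD, n = 4 each). FOXK1 at 39221345 to 39221480 was at 73.3% ± 1.44 against 65.6% ± 2.48. FOXN3 was at 93.4% ± 1.93 against 88.1% ± 4.19 in its region at 100835258 and at 98.3% ± 0.832 against 95.7% ± 2.05 in that at 101121728, where the difference of 2.58 percentage points was 1.60 without library 16 of CON_noP. The first TBX2 region, the FOXK1 region and both FOXN3 regions had no overlap between the groups, 4 of the 7 member regions without overlap (7 of 168 are 4.17%, where 3.34% of all regions had none). RUNX2 at 18944423 to 18944481 on chromosome 23, a region named after its values were seen, was at 97.9%, 94.7%, 98.3% and 97.7% in MET_noP and at 97.9%, 86.5%, 81.2% and 86.4% in CON_noP, and CON_P was at 96.1% ± 1.94.

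Among sites without overlap, taken once per gene, the widest differences in MET_noP against CON_noP were in TBX2, FOXH1, FOXJ1 and FOXE1. TBX2 at 11688193 was at 61.1%, 46.9%, 45% and 60% against 28.6%, 19.2%, 42.9% and 14.3% (limma, adjusted p = 0.906). FOXH1 at 469990 on chromosome 14 was at 54.2% ± 8.07 against 32.2% ± 7.40 and FOXE1 at 63053536 on chromosome 8 at 56.8% ± 4.88 against 35.9% ± 8.05 (SD, n = 4 each). FOXJ1 at 55542209 on chromosome 19 went the other way, at 61.5%, 74.4%, 50% and 70.97% against 82.4%, 88.5%, 95.5% and 77.3% (limma, adjusted p = 0.906). Over all member sites, 87 (5.78%) had an unadjusted p under 0.05, where 5.13% of all sites did. Of the 87, 64 were higher in MET_noP, as were 6698 of the 10222 such sites in the whole table (3.36% of all sites). With centring, 42 of 79 member sites were higher.

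The comparison of MET with CON over both outcomes used all 16 libraries. Of the 71 member genes 12 (16.9%) had an unadjusted p under 0.05, where 8.76% of all genes did. Of the 12, 11 were higher in MET, as were 640 of the 764 such genes in the whole table (7.34% of all genes). With centred libraries, 5 of 10 member genes were higher in MET, so the one-sidedness of the list was not kept under that scaling. KLF15, a glucocorticoid-responsive regulator of amino acid and glucose use, had the smallest p. Over its 48 sites on chromosome 22 it was at 78.8%, 78.5%, 81.0% and 82.1% in MET_P, 82.1%, 73.8%, 77.3% and 80.6% in MET_noP, 79.7%, 76.8%, 73.4% and 71.5% in CON_P, and 72.9%, 68.5%, 74.2% and 73.5% in CON_noP. The difference was 5.47 percentage points (M difference 0.43 ± 0.12 SE, limma, adjusted p = 0.505). KLF15, GATA5 and the members below were named after their values were seen.

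The KLF15 difference lay at one end of the gene. Over the 8 sites from 60623903 to 60624001 the groups were at 52.8% ± 9.69 in MET_P, 47.7% ± 15.6 in MET_noP, 36.1% ± 19.8 in CON_P and 31.1% ± 9.0004 in CON_noP (SD, n = 4 each). Over the 12 sites from 60623507 they were at 76.8% ± 8.03, 75.5% ± 5.51, 72.4% ± 1.95 and 61.2% ± 9.94. The 19 sites from 60617898 to 60618318 were at 91.6%, 91.3%, 90.3% and 91.4% in the same order. Over sites with a mean level of 10% to 90% the KLF15 difference was 9.57 percentage points, and with the median over its sites it was 3.02.

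GATA5, a factor of heart and gut endoderm, was at 24.5% ± 2.04 in MET_P, 27.8% ± 2.98 in MET_noP, 19.8% ± 4.82 in CON_P and 20.3% ± 5.14 in CON_noP over 12 sites (SD, n = 4 each; limma, adjusted p = 0.505). Its 4 sites from 54801526 to 54801563 on chromosome 13 were at 40.9%, 45.8%, 31.2% and 28.9% in that order. The others with a higher level in MET included FOXH1 (9.32 percentage points), SOX15 (12.4), TBX2 (8.26), KLF2 (5.63), SOX30 (5.06), FOXS1 (3.69), FOXE1 (3.28) and FOXD3 (1.90). FOXO3 was the exception at -3.84 percentage points, with 48.0% in MET and 51.8% in CON. KLF2, which keeps endothelium and T cells quiescent, was at 30.6%, 25.7%, 15.6% and 17.6% in MET_P against 11.5%, 11.5%, 13.9% and 20.6% in CON_P. Libraries of MET and CON overlapped in all 12 genes, a description only, since the share over all genes is not given here. All 14 member regions with an unadjusted p under 0.05 (8.33%, where 7.56% of all regions had one) were higher in MET, where 5.70% of all regions were, and after centring 7 of 12 were. Of the 1505 sites 6.71% had such a p, where 6.06% of all sites did. Of these member sites 80 were higher in MET, where 3.86% of all sites were, and 49 of 85 after centring.

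Over both diets, P against noP gave 0 member genes of 71 with an unadjusted p under 0.05, where 3.35% of all genes had one, and 2 of 168 regions, where 3.42% of all regions did. KLF7 had the largest difference, 7.01 percentage points, which was 3.69 without library 25 of MET_noP, where SOX15 had the largest at 4.62. Member sites under 0.05 numbered 38 (2.52%, where 3.83% of all sites did). GATA4, a factor of endoderm and gonads, held a position of that kind, described next.

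The study names or lists 22 positions in 12 of these genes, and values of most of them are given here or above. These positions had been picked by logistic regression in these same libraries, so their direction here is no independent evidence. None passed the adjusted threshold of the limma fit. GATA4 at 7689610 on chromosome 8 was at 13.95%, 9.38%, 17.1% and 21.1% in CON_P and at 4.44%, 2.33%, 4.00% and 5.95% in CON_noP, so CON_P was above CON_noP in every library (limma, adjusted p = 1). In MET_P it was at 30.6%, 11.8%, 12.5% and 17.3% and in MET_noP at 12.8%, 6.06%, 9.72% and 14.5%. FOXN1, the factor of thymic epithelium, was at 16%, 15.2%, 6.45% and 21.4% in MET_P and at 27.3%, 33.3%, 38.1% and 25.4% in MET_noP at 19988869 on chromosome 19 (limma, adjusted p = 0.890). FOXN3 at 100854289 was at 95.8%, 51.6%, 56.2% and 58.8% in MET_P and at 100%, 84.6%, 100% and 100% in MET_noP, where library 15 of MET_P lay among the MET_noP values. In FOXJ1 at 55542176, near the site above, MET_P was at 53.1% ± 14.9 and MET_noP at 30.1% ± 5.99 (SD, n = 4 each). GATA3 at 15924403 was at 38.7% ± 13.7 against 20.8% ± 11.7, with overlap. FOXK1 has 3 listed positions. At 39257114 it was at 76.2% ± 2.30 in MET_P, 71.6% ± 8.46 in MET_noP, 80.7% ± 7.64 in CON_P and 69.8% ± 6.51 in CON_noP (SD, n = 4 each), higher in P on both diets by 4.65 and 10.95 percentage points, and the first was 0.653 without library 25 of MET_noP. At 39257584 it was at 93.4% ± 3.68, 80.6% ± 14.4, 84.2% ± 11.4 and 94.2% ± 3.53 in the same order, with differences of 12.8 on RPM and -10.02 on the control diet. These were 6.06 without library 25 and -4.88 without library 18 of CON_P. At 39257561 they were 9.47 and -6.56, and 2.64 and -1.45 without the same libraries. TBX3 at 60097812 was at 31.97% ± 3.29, 28.8% ± 9.20, 21.4% ± 8.52 and 39.7% ± 13.7 in the same order (SD, n = 4 each).

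At 3 adjacent TBX2 positions, 11687216, 11687220 and 11687230, MET_P stood at 75.9%, 72.2% and 73.7%, MET_noP at 56.8%, 51.9% and 52.9%, CON_P at 55.3%, 44.7% and 52.9%, and CON_noP at 50.0%, 45.3% and 42.3%. Library 25 was the lowest of MET_noP at all 3 positions (30%, 23.3% and 33.3%). The same library was the highest of all 16 at both FOXK2 positions, 55.3% at 50063869 and at 50063891 on chromosome 19, where the other MET_noP libraries were at 17.1% to 32.3%. It was the highest of all 16 at the TBX5 position 60298520 on chromosome 17 as well, at 54.5%. In CON_P the FOXK2 position 50063869 was at 44.6%, 38.2%, 11.8% and 2.33% in libraries 14, 18, 26 and 30, and TBX5 at 60298520 was at 39.7%, 29.2%, 10% and 1.92% in the same libraries. Both genes thus had the same order of libraries in CON_P, on different chromosomes, a likeness noticed after the values were seen. The 4 TBX5 positions and both FOXK2 positions overlapped between the groups in all comparisons.

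The 2 comparisons of diet share no library, and neither do the 2 of outcome. Over the 71 genes, MET_P minus CON_P and MET_noP minus CON_noP had a Pearson correlation of 0.33 and a Spearman correlation of 0.22, and 36 genes (50.7%) had the same sign. Over all 8719 genes the Pearson correlation was 0.046, and 52.4% had the same sign. CON_P minus CON_noP and MET_P minus MET_noP had a Pearson correlation of -0.41 over the members (-0.27 by Spearman), with the same sign in 28 genes (39.4%), beside -0.29 and 44.8% over all genes. These describe genes, which are not independent replicates. Single libraries moved several of the differences by diet plotted here. Without library 25 of MET_noP the difference in cows that did not become pregnant was 6.16 instead of 12.5 percentage points in SOX15 and -2.08 instead of -8.72 in KLF7, and without library 13 of MET_noP it was 4.42 instead of 7.501 in TBX2. In cows that became pregnant, without library 14 of CON_P it was 2.96 instead of 5.68 in FOXH1 and -1.23 instead of -5.46 in FOXK2.

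**Figure D5:**
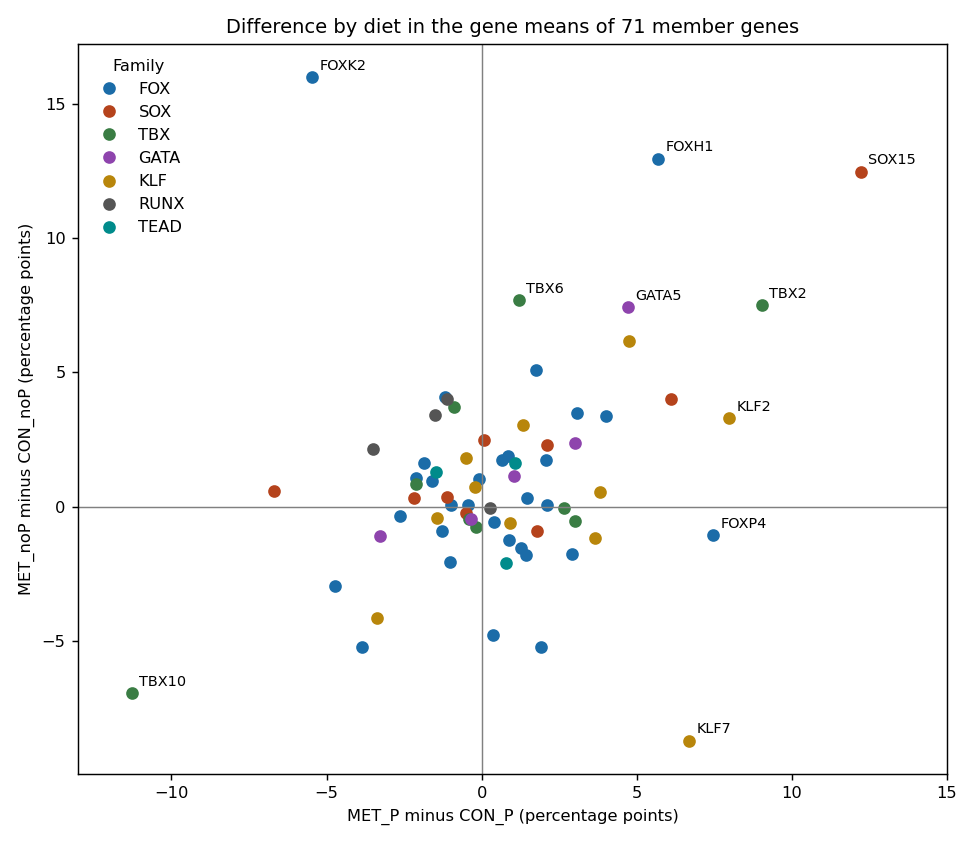
Difference by diet in gene methylation level (percentage points) in cows that became pregnant (horizontal axis, MET_P minus CON_P) and in those that did not (vertical axis, MET_noP minus CON_noP), one point for each of 71 member genes, coloured by family. Genes over 7 percentage points on either axis are named. SOX15 (12.2 and 12.5), TBX2 (9.03 and 7.501) and FOXH1 (5.68 and 12.96) lie high on both axes, FOXK2 (-5.46 and 15.99) and KLF7 (6.69 and -8.72) on one.

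Partners of these factors were read from a list of 57 genes, of which 39 had at least 2 sites, and 0 of the 39 passed the adjusted threshold in any comparison. In MET_P against CON_P, 5 of the 39 had an unadjusted p under 0.05 (12.8%, where 7.26% of all genes did). TLE1, a Groucho corepressor bound by FOX, RUNX and TCF factors, was at 42.5% in MET_P and 58.0% in CON_P, a difference of -15.4 percentage points (limma, adjusted p = 0.666). TLE3 (71.4% against 62.1%), AKT1, the kinase that excludes FOXO from the nucleus (80.3% against 73.6%), NR2F2, a stromal receptor that acts below progesterone (16.1% against 13.1%), and WNT5A (73.2% against 68.0%) were higher in MET_P. TLE1 was also lower in MET_P than in MET_noP, 53.4% (limma, adjusted p = 0.810). In that comparison 2 of the 39 had an unadjusted p under 0.05 (5.13%, where 5.59% of all genes did). IHH, the epithelial signal induced by progesterone, was at 21.5% in MET_noP and 15.1% in CON_noP over 2 sites (limma, adjusted p = 0.748). It was the 1 partner of 39 with an unadjusted p under 0.05 there (2.56%, where 6.39% of all genes had one). Of the Hippo genes and TEAD partners, 11 of 17 were measured. WWTR1, which encodes TAZ, had 1 unadjusted p under 0.05, for P against noP over both diets (5.35 percentage points over 2 sites, limma, adjusted p = 0.999). In that comparison 2 of the 39 partners had one (5.13%, where 3.35% of all genes did).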

How the data were processed

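Percent methylation at cytosine positions was analysed in 16 endometrial cytobrush libraries, 4 for each combination of diet and outcome. The deposited percent values had been made by the authors from RRBS reads, trimmed with Trim Galore, aligned with Bismark to ARS-UCD 1.2, sorted with SAMtools and quantified in SeqMonk, which also gave the gene symbols. Read counts per site were not used here, so site depth is unknown. Columns, which are named by library number, were assigned to groups by the group name in the header line above them.

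Members were found by symbol. The members, gene lists and tests were chosen with earlier results of these data known. Percentages were averaged over gene (at least 2 sites) or region (at least 3 sites, gaps of at most 200 bases). These means, and the percentages of single sites, were then converted to M values (offset 1 percentage point). The M values were fitted with limma 3.58.1 in R 4.3.3, with Benjamini-Hochberg adjustment over the whole table and a threshold of 0.05. Differences are in percentage points of the untransformed means. The 4 pairs of groups were fitted separately, and diet, outcome and their interaction over all libraries. Code was tested on simulated data.

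Genes named in the text passed the threshold, had libraries without overlap (up to 5 genes and 5 regions by size of difference, and up to 4 sites, in each comparison), were named or listed by the study, stood at the extremes of level, range or number of sites, or have a known role in endometrium or trophoblast. A member gene and a partner gene are not reported here by name but stay in the counts. Others, such as FOXE3, TBX10, SOX30, TBX6 and FOXJ3, were named after their values were seen, and not all of them are marked so. Alternatives were untransformed percentages, an offset of 0.1, a variance trend, centring on the same median M value, sites of 10% to 90%, 1 model for all libraries, sets of library numbers as a replicate block, at least 5 sites per gene, merged strands, gaps of at most 50 bases, the median over sites, the mean over genes and leaving out each library. No sequence was printed, since none of the build was at hand.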

Additional observations from a re-analysis of the deposited data

Results flagged for a closer look

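In 15 of 168 groups of 4 libraries (8.93%), over 42 named genes, 1 library lay far from the other 3 by Dixon's ratio. Chance gives about 5% of unselected groups, but some of the named genes were chosen for a wide range over the libraries. The shares therefore cannot be compared. No cause was tested.

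High libraries were found in FOXA1 in MET_P (27.8%, the others 12.9% to 15.4%), FOXL1 in MET_P (11.2%, the others 8.50% to 8.95%), FOXQ1 in MET_noP (12.2%, the others 6.83% to 7.59%), KLF13 in CON_P (34.3%, the others 18.4% to 19.7%), KLF5 in CON_noP (12.2%, the others 6.78% to 7.14%), KLF9 in MET_noP (16.98%, the others 9.33% to 10.4%) and SOX13 in CON_noP (95.6%, the others 93.0% to 93.4%).

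Low libraries were found in FOXK1 in CON_P (76.9%, the others 84.0% to 84.9%), FOXQ1 in CON_noP (4.90%, the others 11.7% to 12.3%), GATA3 in CON_noP (21.6%, the others 27.1% to 27.6%) and KLF7 in MET_noP (58.3%, the others 83.6% to 86.8%). The rest were RUNX2 in MET_P (72.9%, the others 75.1% to 75.5%), RUNX3 in CON_P (31.1%, the others 46.6% to 48.4%), SOX15 in CON_P (18.7%, the others 37.9% to 40.7%) and SOX5 in MET_P (55.1%, the others 61.6% to 62.8%). KLF5 and KLF9 rest on 1 site each.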

How the results depend on the processing

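The 21 counts of members past the adjusted threshold, all 0, were recomputed to 399 values, and 4 of these moved. With an offset of 0.1 percentage points, 4 member sites passed in CON_P against CON_noP, 2 in MET_P against MET_noP, 1 in MET_P against CON_P and 2 in MET_noP against CON_noP, and at all 9 every library of 1 group was at 100%. With 1 library left out the counts of 0 ranged from 0 to 0. Of 414 recomputed values of 34 named differences 1 reversed, the TEAD4 region at 106809893 in MET_P against MET_noP, which was 1.62 percentage points with the median over its sites. Of these, 10 differences moved by over 1.5 times without 1 library, as given with each. Member genes with an unadjusted p under 0.05 numbered 1 to 5, 1 to 4, 1 to 9 and 3 to 12 with 1 library left out, in the order of comparisons above, and 7 to 13 for MET against CON. Centring the libraries changed the share of members higher in MET, as given with each count. TBX4 was at -3.20 centred and -4.70 with the median over sites, FOXD3 at 4.51 over sites of 10% to 90%, the GATA3 region at 5.74 and the FOXK1 region at 4.63 with the median. The columns carry no replicate number of the labels, but their library numbers form 4 consecutive sets with 1 library of each group. With these sets as a replicate block the counts past the adjusted threshold were 0, and member genes with an unadjusted p under 0.05 numbered 0, 2, 2, 7 and 12 in the order above. Deviations from the group means correlated at -0.20 to 0.21 within sets and at -0.44 to 0.46 between sets. Of 16 libraries 2 were closest to one of their own set. Whether a set shared more than a run of numbers was not tested. Unknown depth limits every single-site value, and 4 libraries against 4 allow an exact permutation p of 0.0286 at the smallest.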

Other observations

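Among further partners NCOR1, a corepressor of nuclear receptors, was at 80.1% in MET_P, 82.2% in MET_noP, 82.8% in CON_P and 79.9% in CON_noP, with an interaction of -5.05 percentage points (limma, adjusted p = 0.893). In the leukocyte list CD6, ITGAL and SPI1 had an unadjusted p under 0.05 in MET_P against CON_P, 2 higher and 1 lower (15.8% of 19, where 7.26% of all genes had one). Of the 7 epithelial and 6 stromal genes 0 had one in any comparison, where 3.35% to 8.76% of all genes did. The measured partners of RUNX (1 of 3) and GATA (3 of 4) had none either.

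Library 25 of MET_noP held the highest or lowest level of the 16 libraries in 16 of 71 member genes (22.5%, and 19.04% of all genes), the most of any library, and library 31 of MET_P in 3 (4.23%, and 5.86% of all genes).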
